A study of Mus musculus with 6 samples.

Results

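The red pulp and the white pulp of the untreated mouse spleen were set against each other within 1 tissue section. The section, 5 µm thick, came from an adult wild-type mouse (supplied by the Jackson laboratory) that received no treatment, and was cut from a formalin-fixed, paraffin-embedded block. Its RNA was read in place with a panel of 477 genes on the Xenium instrument, which decodes single RNA molecules by imaging and assigns each of them to a segmented cell. The section held 108338 cells with 10351683 gene transcripts and a median of 84 transcripts per cell. It was laid out in squares of 50 µm, and the 1752 squares with at least 10 cells were kept, of 10993 such squares over all 6 sections of the series. Each square was given the share of its transcripts that came from Slc40a1, Spic and Vcam1. The 438 squares in the highest 25% of this share are called red pulp here and the 438 in the lowest 25% white pulp, so that 876 of the 1752 squares were compared. The spleen of 1 wild-type mouse given phenylhydrazine (PHZ, which destroys red blood cells) into the peritoneum at 40 mg/kg 2 times a day for 2 days lay on the same slide and was put through the same steps.

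The red pulp of the spleen is a mesh of venous sinuses and cords in which macrophages take up worn red blood cells and return their iron to the blood. In the mouse it is also a site of blood cell formation. The white pulp consists of lymphoid sheaths around arterioles, with a T cell zone and B cell follicles, and a marginal zone with macrophages of its own separates it from the red pulp. The 3 genes of the score are known from red pulp macrophages: Slc40a1 encodes ferroportin, the iron exporter of the cell, Spic a transcription factor that these macrophages need, and Vcam1 an adhesion molecule.

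The squares were selected on these 3 genes, so their levels are a description and no result. The share ran from 7.13% to 13.6% in the red pulp squares, with a median of 8.46%, and from 0.0715% to 1.89% in the white pulp squares, with a median of 1.23%. The last red pulp square had 7.134% and the first square left out 7.128%. The last white pulp square had 1.892% and the first left out 1.895%. Slc40a1 stood at 46048 CPM (a gene's transcripts per 1000000 gene transcripts of the zone) in red pulp and 4041 in white pulp, Spic at 17264 and 3444, and Vcam1 at 24008 and 4702. A transcript of Slc40a1 was found in 90.5% of the cells of red pulp squares and in 20.6% of those of white pulp squares.

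With 1 section there was no replicate, so no test was made and no p-value is given. The intervals below are exact 95% intervals of a ratio of counts and cover counting error only, since squares and cells of 1 section are not replicates. A gene was compared where both zones together held at least 200 of its transcripts. A gene at least 2-fold apart is counted as higher in that zone, on the CPM scale unless another is named.

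The white pulp squares lay together in patches. The 438 white pulp squares fell into 18 groups of touching squares, of which the largest held 158, the next 143 and the next 80. Of the neighbors of white pulp squares, each counted again for every white pulp square it touched, 67.1% were white pulp and 1.07% red pulp. The red pulp squares lay more often along the edge of the tissue: 27.9% of them had fewer than 8 kept neighbors, against 3.88% of the white pulp squares. Some squares at the edge of the section held fat. In 28 squares more than 1% of the transcripts came from a list of fat genes, and 21 of these fell in the lowest 25% of the score and none in the highest. These 21 squares held 0.941% of the white pulp cells but 95.6% of the fat list's transcripts in white pulp.

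**Figure D1:**
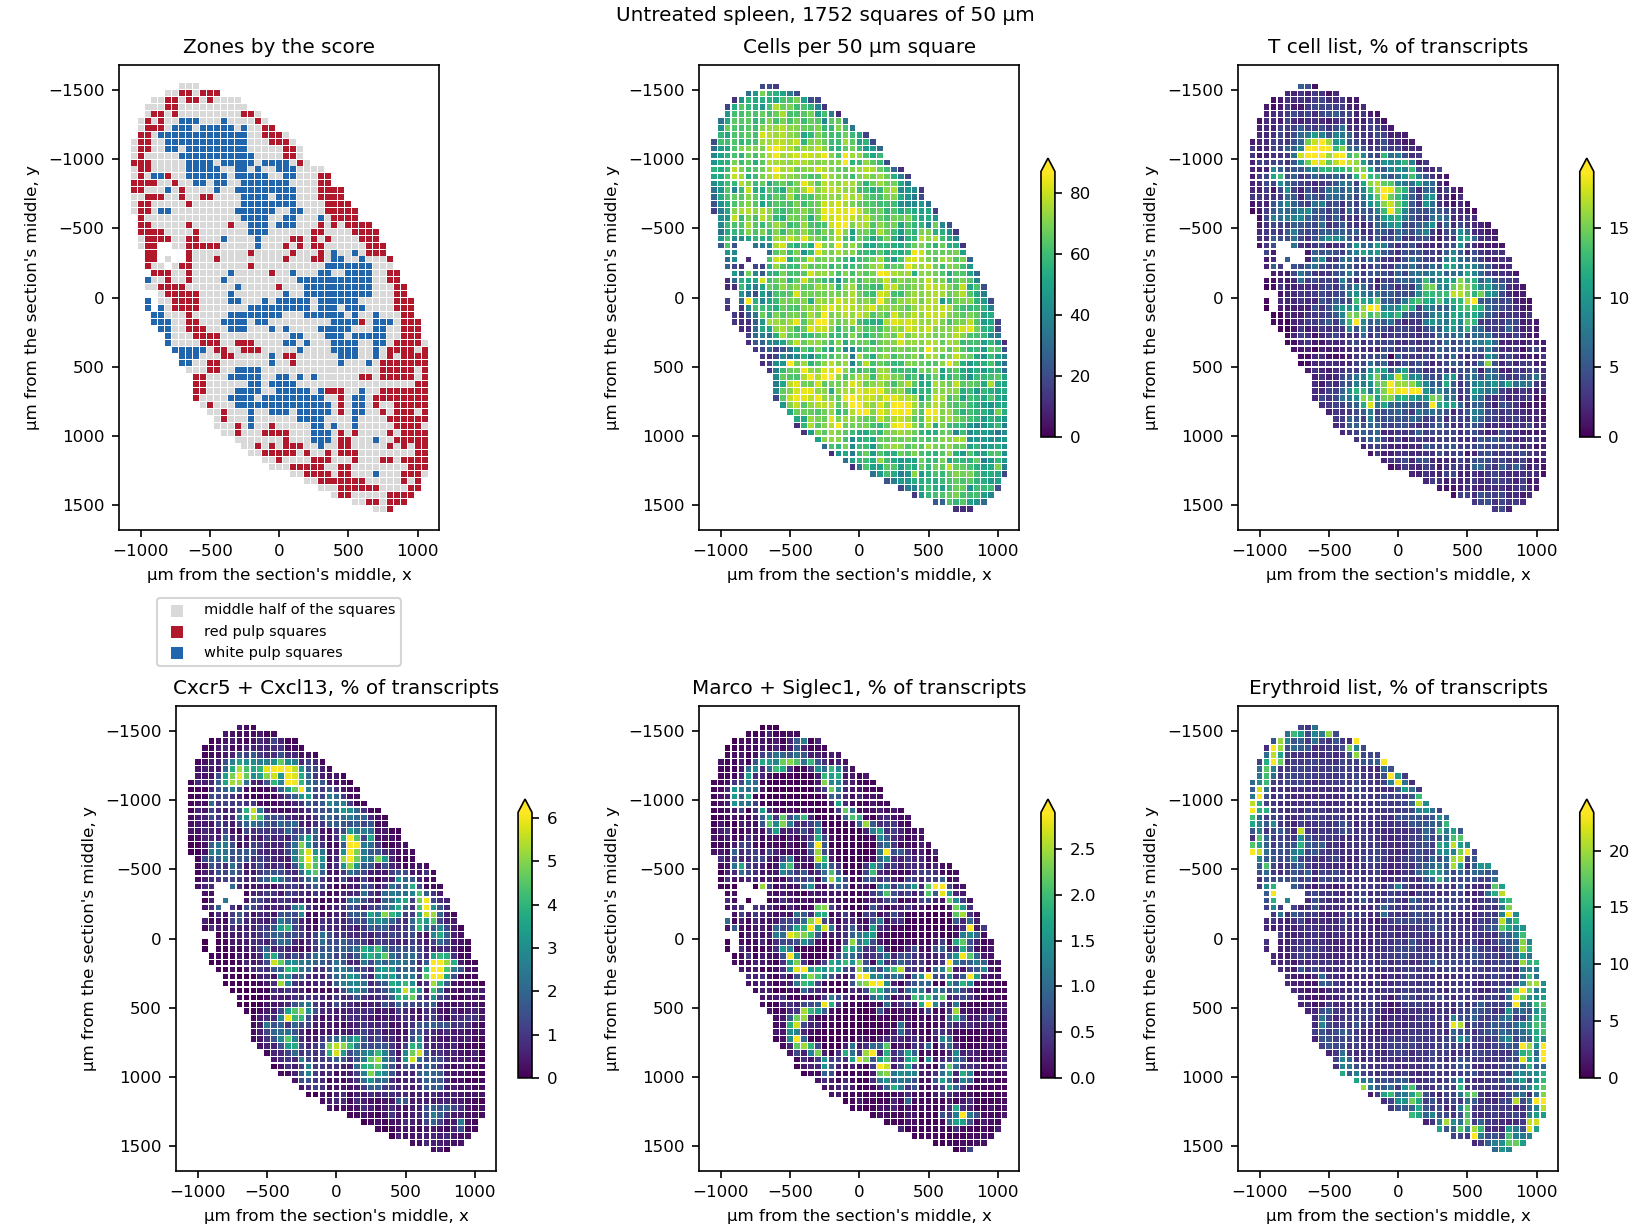
Maps of the untreated spleen, in µm from the middle of the section, with 1 mark per kept square of 50 µm. Upper row: the zones by the score, the number of cells, and the share of transcripts from the T cell list. Lower row: the shares from Cxcr5 and Cxcl13, from Marco and Siglec1, and from the erythroid list; color scales end at the 99th percentile. White pulp squares form inner patches with T cell cores and Cxcr5 and Cxcl13 beside them, Marco and Siglec1 run in bands around the patches, and the erythroid list is highest toward the outer edge.

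Cells were packed more densely in white pulp. The white pulp squares held 30926 cells, or 28243 per mm², and the red pulp squares 22873, or 20889 per mm², which is a ratio of red over white of 0.740 (0.727 to 0.752). By square, red pulp ran from 11 to 91 cells with a median of 54, and white pulp from 10 to 95 with a median of 73. The ranges overlapped at both ends, but 93.4% of the white pulp squares had more cells than the median red pulp square and 2.51% of the red pulp squares had more than the median white pulp square. Without squares that had fewer than 8 neighbors the ratio was 0.772. Of the 4 quadrants of the section, cut at the median cell position, the lower left one gave 1.02. It held 19 of the 21 fat squares counted as white pulp, and without these its ratio was 0.812.

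Cells were also larger in red pulp, with a median area of 41.8 µm² (quartiles 31.5 and 55.5) against 32.0 µm² (25.4 and 40.2) in white pulp, a ratio of 1.30. The nuclei were not: their median area was 21.5 µm² in red pulp and 22.1 µm² in white pulp, a ratio of 0.973. The nucleus took a median of 51.2% of the cell area in red pulp and 69.5% in white pulp. The outlines of this data set are nuclei expanded until they meet, and the summed cell areas came to 98.9% of the area of the red pulp squares and 99.9% of that of the white pulp squares. The cell area therefore restates the spacing of nuclei and is not a second measurement beside density. Cells without a nucleus, such as mature red blood cells and platelets, have no outline of their own, and their transcripts fall to neighbors.

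**Figure D2:**
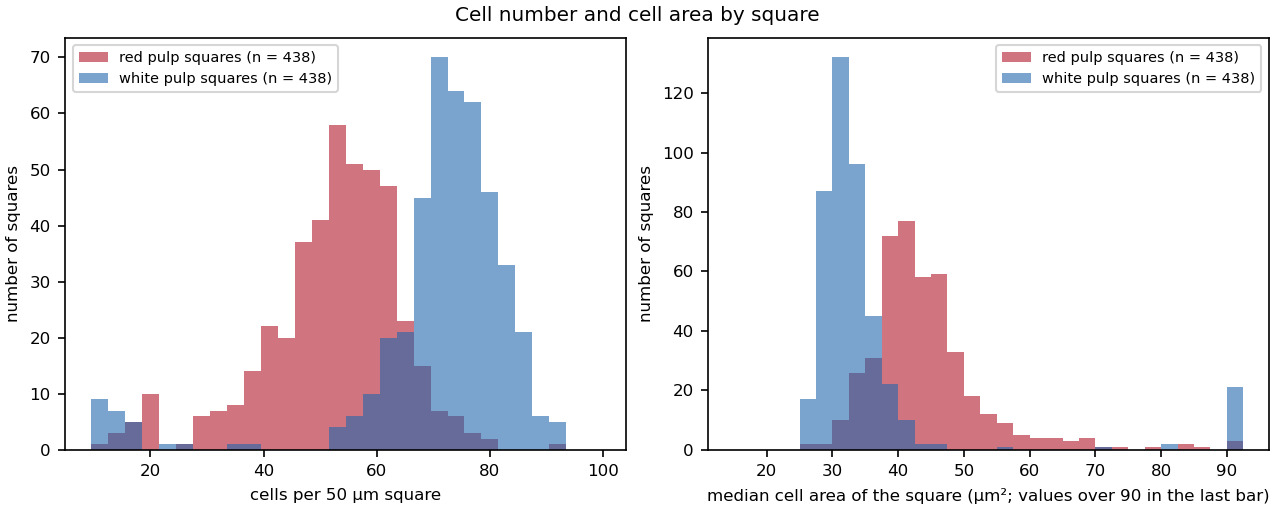
Number of cells per square (left) and median cell area per square in µm² (right) for the 438 red pulp and 438 white pulp squares of the untreated spleen; bars count squares. Median cells per square were 54 in red pulp and 73 in white pulp, and the small group of white pulp squares with few, large cells at the far ends holds the fat squares.

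A cell held a median of 104 transcripts in red pulp and 75 in white pulp, a ratio of 1.39, while the transcripts per mm² of the zones had a ratio of 1.03. Of the transcripts in cells, 53.8% lay over a nucleus in red pulp and 64.8% in white pulp. A choice of scale therefore moves every ratio: on counts per cell in place of CPM, every log2 ratio was higher by 0.48, and the median of the compared genes went from -0.47 to 0.01.

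Of the 477 genes, 362 were compared, the 3 score genes left out and 112 under the minimum. At least 2-fold higher in red pulp were 89 (24.6%), and at least 2-fold higher in white pulp 143 (39.5%). On counts per cell the same 362 genes split into 114 (31.5%) and 90 (24.9%), so which zone had more such genes depended on the scale. The balance also depended on depth. Among the 243 genes with at least 1000 counts, 82 were higher in red pulp and 62 in white pulp, and among the 119 with fewer, 7 and 81. Genes of other organs leaned the same way as these scarce genes on CPM: 14 of 15 had a log2 ratio below 0, with 2536 transcripts in red pulp and 3842 in white pulp. Their median was -1.07, that of all compared genes -0.47 and that of the 119 compared genes with fewer than 1000 counts -1.41. Of the 7 that reached the count minimum, 3 were at least 2-fold higher in white pulp and none in red pulp, against 39.5% and 24.6%. On counts per cell these were again 3 and none, against 24.9% and 31.5%, and the 7 ran from -1.40 (Myf6) to 0.92 (Gfap). The 20 control probes designed against no gene of the mouse leaned the other way, with 193 counts in red pulp and 120 in white pulp. The most abundant of them gave 26 in each zone. The part of background signal in the scarce genes was not tested.

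**Figure D3:**
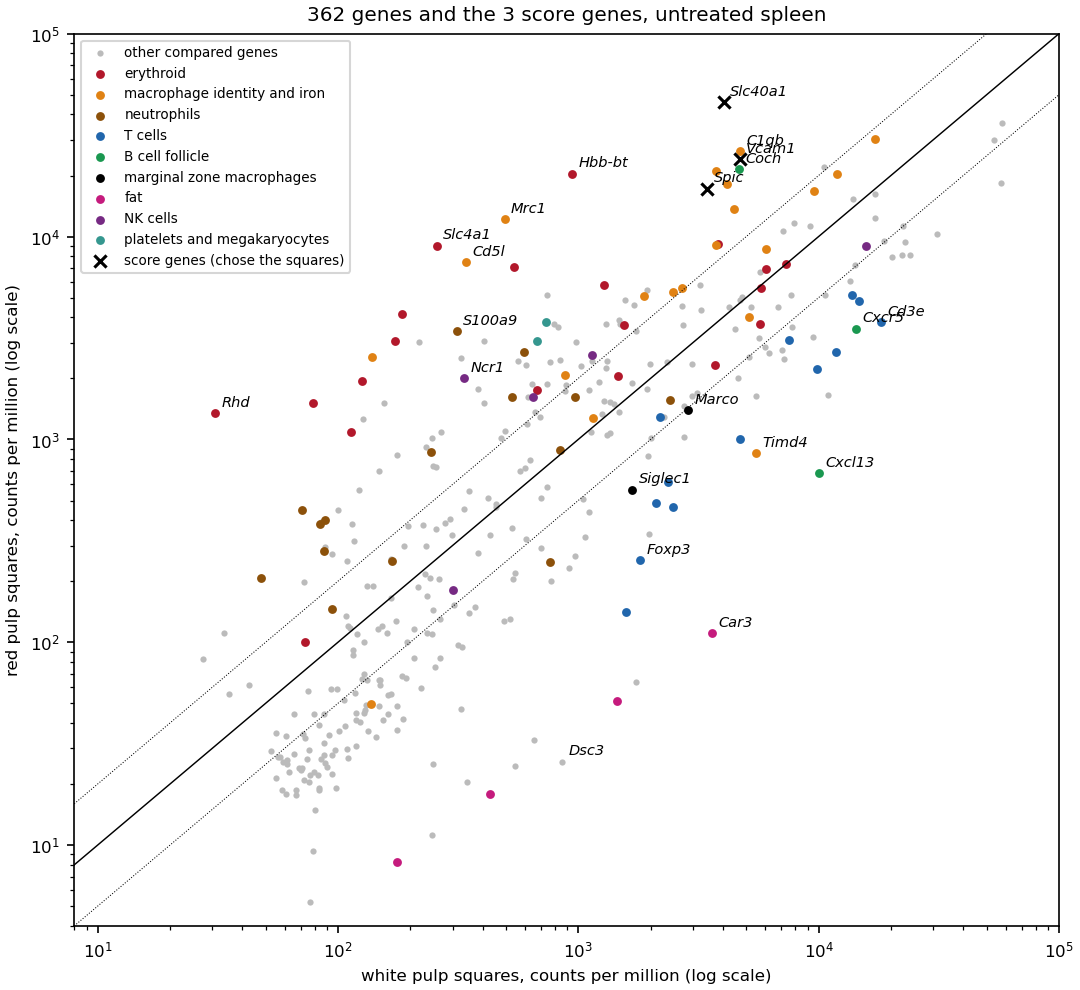
CPM in red pulp against CPM in white pulp squares, both on log scales, for 362 compared genes (dots, colored by list) and the 3 score genes (crosses). The solid line marks equal values and the dotted lines 2-fold; erythroid and macrophage genes such as Slc4a1 (9018 and 258 CPM) stand far above the lines, and Cxcl13 (685 and 10017 CPM) far below them.

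Macrophage genes were higher in red pulp for the most part. Of the 20 genes of macrophage identity and iron handling, 12 were at least 2-fold higher in red pulp and 2 in white pulp, against 24.6% and 39.5% of all compared genes. Their median log2 ratio was 1.18, and that of all compared genes -0.47. Mrc1, the mannose receptor, had 12190 CPM in red pulp and 494 in white pulp, a log2 ratio of 4.62 (4.54 to 4.71). Its lowest red pulp square had 4222 CPM and its median red pulp square 12017, while the median white pulp square had 189 and the highest 12379. All red pulp squares lay above the white pulp median, and 0.228% of the white pulp squares lay above the red pulp median. Cd5l, a secreted protein of tissue macrophages, had a log2 ratio of 4.45 (4.36 to 4.55), and Cd163, the receptor that takes up hemoglobin bound to haptoglobin, 4.20 (4.05 to 4.36), or 4.84 with the 21 fat squares left out of white pulp.

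The complement genes C1qa, C1qb and C1qc, whose products form the C1q complex, differed less. C1qb had 26321 CPM in red pulp and 4726 in white pulp, 5.57-fold (log2 2.48, 2.45 to 2.51), C1qc 5.60-fold and C1qa 4.35-fold. C1qb ran from 13165 to 39873 CPM over the red pulp squares with a median of 26076, and from 0 to 25000 over the white pulp squares with a median of 3874. No white pulp square reached the red pulp median. Adgre1, which encodes the macrophage marker F4/80, differed by 1.04 on the log2 scale. The members that went the other way were Timd4 and Folr2. Timd4, a receptor for phosphatidylserine on dying cells, stood at 859 CPM in red pulp and 5500 in white pulp, a log2 ratio of -2.68 (-2.74 to -2.61), and Folr2, a folate receptor of some tissue macrophages, at -1.48. With the 21 fat squares left out of white pulp, Folr2 stood at -0.79, within 2-fold.

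The zones were in the same order by cells. Cells with at least 3 transcripts of C1qa, C1qb and C1qc together made up 70.3% of the red pulp cells (exact binomial interval 69.7% to 70.9%) and 11.9% of the white pulp cells (11.5% to 12.2%). With only transcripts over the nucleus, these were 40.1% and 5.50%. After each cell was thinned to 50 transcripts, with 20375 red pulp and 25417 white pulp cells deep enough, they were 51.6% and 6.999%. Cells that passed the same minimum for the T cell genes Cd3e, Cd3d, Cd4 and Cd8a also passed the C1q minimum in 70.0% of cases in red pulp and 16.3% in white pulp. T cells do not make C1q, so a share of cells here is a share of outlines with the transcripts in them, not of macrophages. These gene sets for single cells and their minimum were chosen with the data in view.

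The erythroid genes held the highest single ratios of red over white pulp, those of Rhd and Slc4a1, though not the highest list median. Of 20, 13 were at least 2-fold higher in red pulp and none in white pulp, against 24.6% and 39.5% of all compared genes, with a median log2 ratio of 1.78. Slc4a1, the anion exchanger of the red cell membrane, had 9018 CPM in red pulp and 258 in white pulp, 34.9-fold (log2 5.12, 5.01 to 5.24). Rhd, a blood group protein, had a log2 ratio of 5.45 (5.14 to 5.79) and Hbb-bt (beta-globin) 4.44. The early regulators were among them as well, with Klf1, a transcription factor of red cell formation, at 4.27, Epor, the erythropoietin receptor, at 3.95, and Gata1 at 3.27. Car2, a carbonic anhydrase, stood at 3.70 and Hemgn at 4.14. The other 7 genes of the list stayed within 2-fold, among them Tfrc, the transferrin receptor, at -0.05, and Kit, the receptor of early progenitors and mast cells, at 0.49. Both are also used by other cells of the spleen.

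Unlike the macrophage genes, the erythroid genes were unevenly spread within red pulp. The red pulp squares ran from 0 to 40313 CPM of Slc4a1 with a median of 4946, and the white pulp squares from 0 to 3337 with a median of 152. Low red pulp squares thus overlapped the whole range of white pulp, although no white pulp square reached the red pulp median. The 67 richest of 438 red pulp squares held 50% of the red pulp transcripts of Slc4a1, whereas it took 160 for C1qb. Over the 438 red pulp squares, the CPM of Slc4a1 and Hbb-bt went together (Pearson's r 0.77, rank correlation 0.88), and those of Slc4a1 and C1qb less so (r 0.15, rank correlation 0.23). These are descriptions over squares that share a section and a total, with no p-value.

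Most neutrophil genes were higher in red pulp as well. Of the 15 compared, 9 were at least 2-fold higher there and 1, Il1r2, a decoy receptor for interleukin 1, in white pulp (log2 -1.61), with a median of 1.68. Over all compared genes these shares were 24.6% and 39.5%. The other 5 stayed within 2-fold: Ifitm6 (0.74), Mrgpra2a (0.63), Ly6g (0.58), Cxcr2 (0.08) and Pglyrp1 (-0.62). S100a9, a calcium-binding protein of neutrophils, had 3428 CPM in red pulp and 312 in white pulp (log2 3.46, 3.35 to 3.56), and Csf3r, the receptor for the neutrophil growth factor G-CSF, a log2 ratio of 2.18. The granule genes of young neutrophils, Mpo (myeloperoxidase, log2 2.67) and Elane (neutrophil elastase, 2.19), were found in few places: 15 red pulp squares held 50% of the Mpo transcripts of red pulp, and the median red pulp square held none. Mpo ranged up to 15034 CPM in red pulp and 6643 in white pulp.

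Red pulp squares at the border, meaning those with fewer than 8 kept neighbors, differed from the inner red pulp in some of these genes. The 122 red pulp squares at the border were set against the other 316. Of 267 genes compared, 15 were at least 2-fold higher at the border (5.62%) and 2 in the inner squares (0.749%). Elane was higher at the border by 2.63 on the log2 scale (2.45 to 2.82) and Mpo by 2.15 (1.98 to 2.32), with 1069 CPM at the border and 242 inside. Against white pulp without fat, the inner squares alone gave a log2 ratio of 1.08 for Elane and 1.74 for Mpo, lower than the 2.19 and 2.67 of all red pulp squares. Smooth muscle genes, which mark the capsule and trabeculae of the spleen, were also higher there, in 4 of 8 cases, as with Myh11, a smooth muscle myosin, by 1.78. None of the 20 erythroid genes passed 2-fold, and Slc4a1 differed by 0.53 (0.49 to 0.56) and Hbb-bt by 0.66. The macrophage list had a median of -0.05. Border squares held 42.7 cells on average and inner ones 55.9. Without border red pulp squares and fat squares, 89 genes of 349 were at least 2-fold higher in red pulp (25.5%) and 122 in white pulp (35.0%), and 86 of the 89 original red pulp genes and 120 of the 132 white pulp genes that could still be compared were among them. These squares were part of those on which the original genes had been chosen, so much of this overlap was given.

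Platelet genes and some genes of natural killer (NK) cells were also higher in red pulp. The platelet genes Ppbp and Pf4, chemokines stored in platelets and made by megakaryocytes, had log2 ratios of 2.37 and 2.18 and were highest in the squares between the zones: Ppbp had 5358 CPM in the squares just under red pulp by score and 3815 in red pulp itself. Of the 5 NK cell genes, 3 were at least 2-fold higher in red pulp and none in white pulp, against 24.6% and 39.5% of all compared genes. Ncr1, an activating receptor, was at 2.58 (2.48 to 2.69), Klra8 at 1.31 and Klrb1c at 1.20, or 0.86 at its lowest over the alternatives. Ccl5 at -0.82 and Ifng at -0.74, both also made by T cells, stayed within 2-fold. Together the 5 genes had 15402 CPM in red pulp and 18241 in white pulp. Of the 20 compared genes of endothelium, 10 were at least 2-fold higher in red pulp and 2 in white pulp, against 24.6% and 39.5% of all compared genes, among them Vwf, von Willebrand factor (log2 2.05), and Cavin2 (1.95). Plvap, which forms the diaphragms of leaky endothelium, stood at 1.63. In their lowest quadrant Vwf was at 0.67 and Cavin2 at 0.56, both within 2-fold. The lymphatic and sinus marker Lyve1 was at -1.47. With the fat squares left out of white pulp, Lyve1 was within 2-fold at -0.42 (-0.85 to 0.01), Vwf at 2.23 and Cavin2 at 2.65, so that Cavin2 came before Vwf. Of 17 fibroblast and matrix genes, 5 were higher in red pulp, among them Fbln5 (1.65), Pdgfrb (1.62) and Ccdc80 (1.35), and 5 in white pulp, led by Lum (-3.31) and Dpt (-1.98), against 24.6% and 39.5% of all compared genes. Without the fat squares Lum stood at -2.33 and Dpt at -1.29, Ccdc80 had the highest ratio of those 3 red pulp genes at 2.26, and Igfbp6, which carries insulin-like growth factors, turned from -1.07 to 1.83. With only the inner red pulp squares against white pulp without fat, Igfbp6 was at -0.16 (-0.68 to 0.35), so it was not higher in inner red pulp. Fbln5 was at 0.84 in its lowest quadrant. Of the 8 smooth muscle and pericyte genes compared, 3 were higher in red pulp and 1 in white pulp, against 24.6% and 39.5% of all compared genes. Itga8 (2.25), Cnn1 (1.53) and Myl9 (1.06) were higher in red pulp and Rgs5, a pericyte marker, in white pulp (-1.94). In the lower left quadrant Cnn1 stood at -0.18 and Myl9 at -0.14, and Itga8 was at 0.87 in its lowest quadrant. With inner red pulp squares set against white pulp without fat, Cnn1 was at 0.84 and Myl9 at 0.89, both within 2-fold, and Itga8 at 1.64.

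T cell genes were higher in white pulp. Of 13, 12 were at least 2-fold higher there, against 39.5% of all compared genes, and none in red pulp, with a median log2 ratio of -2.13. On counts per cell 10 of the 13 were at least 2-fold higher in white pulp, against 24.9% of all compared genes. The member within 2-fold was Lag3, an inhibitory receptor, at -0.77. Cd3e, a chain of the T cell receptor complex, had 3794 CPM in red pulp and 18182 in white pulp (log2 -2.26, -2.29 to -2.23). Red pulp squares ran from 0 to 15717 CPM with a median of 3337, and white pulp squares from 0 to 53884 with a median of 14387. The ranges overlapped over the whole of red pulp, yet 88.6% of the white pulp squares lay above the red pulp median and 0.228% of the red pulp squares above the white pulp median. The helper coreceptor Cd4 differed more (-2.13) than the cytotoxic coreceptor Cd8a (-1.28, or -0.80 on counts per cell). The genes furthest apart were Pdcd1, the inhibitory receptor PD-1 that follicular helper T cells carry, at -3.48 (-3.63 to -3.33), and Foxp3, the regulator of regulatory T cells, at -2.83 (-2.95 to -2.71), with Ctla4 at -2.41 and Ikzf2 at -2.22. Cells with at least 3 transcripts of Cd3e, Cd3d, Cd4 and Cd8a made up 43.5% of white pulp and 16.3% of red pulp cells.

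The panel held few B cell genes. Cxcl13, the chemokine that draws B cells into follicles, had 685 CPM in red pulp and 10017 in white pulp (log2 -3.87, -3.94 to -3.80), and its receptor Cxcr5, carried by B cells and follicular helper T cells, 3523 and 14364 CPM (-2.03, -2.06 to -1.99). Over the white pulp squares Cxcl13 ran from 0 to 55707 CPM with a median of 5011, and 66 squares held 50% of it. The third gene on this list, Coch, which encodes the extracellular protein cochlin, went the other way: 21469 CPM in red pulp and 4663 in white pulp (log2 2.20, 2.17 to 2.23). It was found in 70.7% of red pulp and 19.9% of white pulp cells, and all red pulp squares lay above its white pulp median. It had been placed with the follicle genes for its known use by follicular dendritic cells, and in this section it ran with the red pulp.

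**Figure D4:**
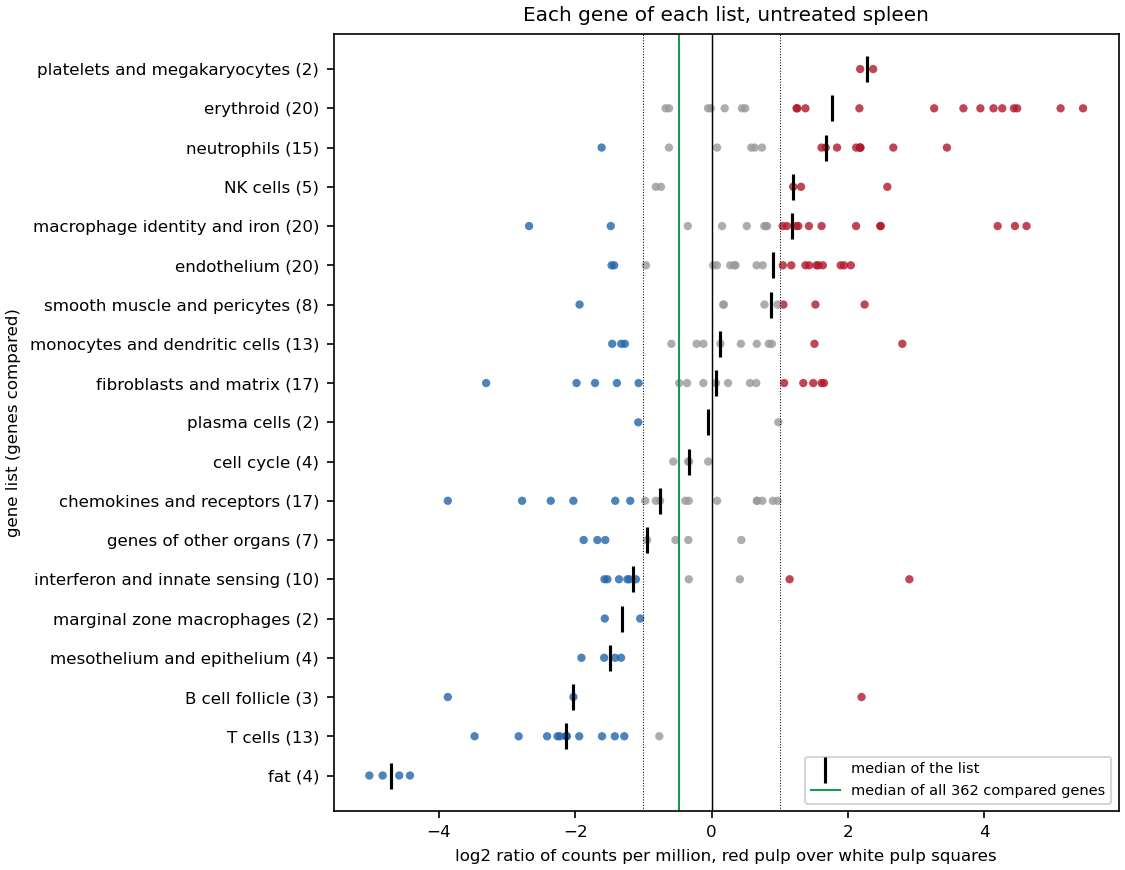
Log2 ratio of CPM, red pulp over white pulp squares, for each compared gene of 19 lists (points; red at or above 1, blue at or below -1, grey between), with the median of each list (black bar) and of all 362 compared genes (green line, -0.47). The T cell list lies at -2.13, the erythroid list at 1.78, and 1 point of the B cell follicle list, Coch, lies on the red pulp side.

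White pulp squares were not alike. The 139 squares with the highest share of the T cell list and the 139 with the lowest, fat squares left out, were set against each other; the T cell genes chose them and are no result. Cxcr5 stood at 7657 CPM in the T-rich and 21254 in the T-poor squares, and Cxcl13 at 2789 and 16827, a log2 difference of -2.59 (-2.66 to -2.53). Over 417 white pulp squares without fat, Cd3e and Cxcr5 ran opposite to each other (r -0.68) and Cxcr5 and Cxcl13 together (r 0.53). Pdcd1 did not follow Cxcr5 (r 0.08). Some genes named after their values were seen were higher in the T-rich squares: Ccl5, a chemokine of cytotoxic cells (2.45), the protease gene Asprv1 (4.07, with 1159 transcripts in all), and Insm1, a zinc-finger transcription factor (2.38). Marco and Siglec1 were lower there, by 3.43 and 3.77 on the log2 scale.

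Marco, a scavenger receptor, and Siglec1, also called CD169, mark the macrophages of the marginal zone and of its inner edge. Both counted as higher in white pulp (Marco -1.05, Siglec1 -1.57), but neither was highest in it. Marco had 1390 CPM in red pulp, 3484 in the squares below it by score, 7279 in those above white pulp and 2873 in white pulp. The upper right quadrant alone gave 0.39 for Marco, and on counts per cell it was within 2-fold at -0.57, as it was at -0.87 with inner red pulp squares against white pulp without fat. Siglec1 was within 2-fold in 2 of 21 alternatives, at -0.13 in a quadrant and -0.57 in a setting that used the whole section. To place the genes, squares were ordered by distance from the nearest patch of at least 5 touching white pulp squares without fat. Inside the patches, in the 69 squares surrounded by white pulp, Marco had 499 CPM. It had 3433 in the rim squares of the patches, 7023 in the squares up to 75 µm away, 4202 from 75 to 125 µm, 2863 from 125 to 200 µm and 2143 beyond 200 µm. Siglec1 had 594 CPM inside, 1959 in the rim, 2098 up to 75 µm and 646 beyond 200 µm.

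A band of this kind was rare on the panel. Among 362 compared genes, only Marco, Siglec1, Dpt, Htra3 and Lum were highest within 125 µm outside a patch and at least 2-fold above both the inside and the squares beyond 200 µm. Dpt and Lum encode proteins of the extracellular matrix and Htra3 a secreted protease. Timd4 was highest in the rim, with 6103 CPM, and still at 5982 up to 75 µm, before it fell to 2482 from 75 to 125 µm. Of the 362 genes, 114 were highest inside the patches, 57 in the rim and 86 beyond 200 µm. Cell density stood at 30220 per mm² inside, 26747 up to 75 µm and 20746 beyond 200 µm. C1qb and Slc4a1 had different profiles. C1qb was at 11160 CPM up to 75 µm and 21230 beyond 200 µm, whereas Slc4a1 was at 1060 and 7208. Since the patches were drawn with the score genes, these profiles are a description.

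**Figure D5:**
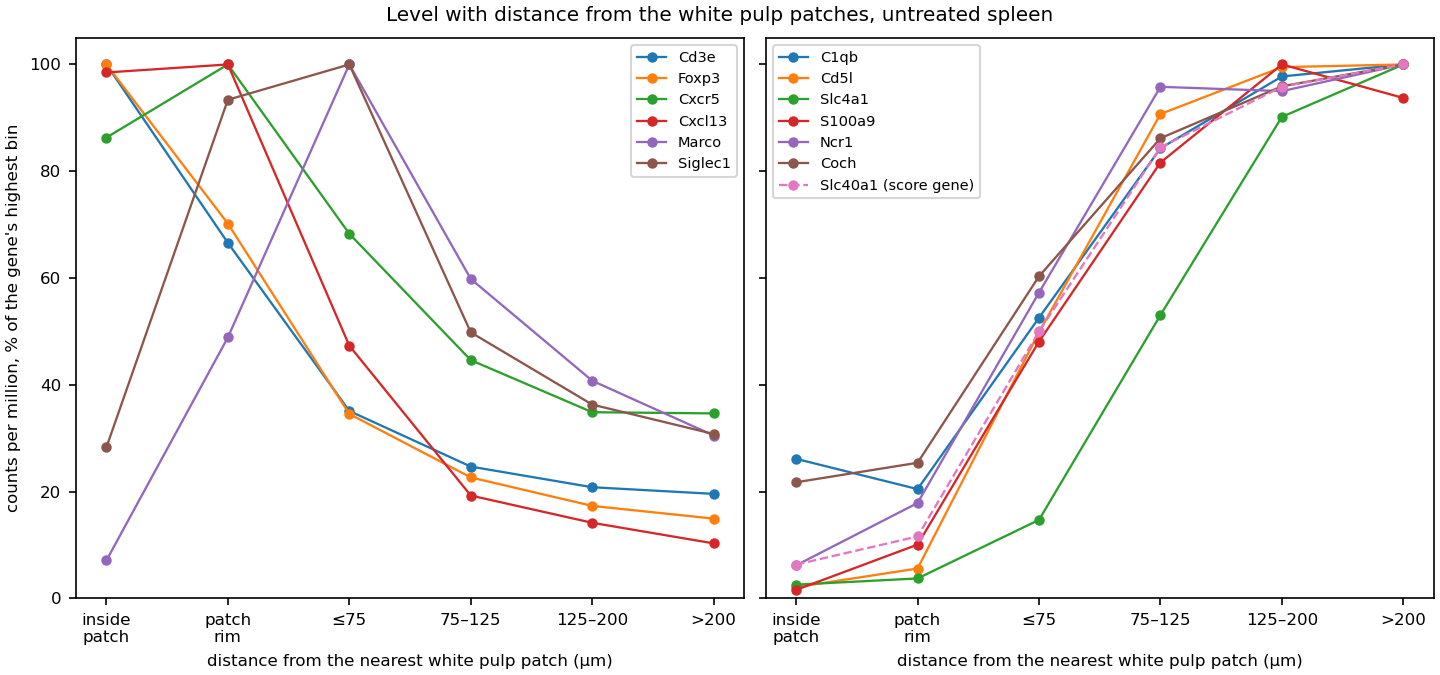
CPM by distance from the nearest white pulp patch, each gene as a percent of its highest bin: 69 squares inside a patch, 330 in the rim, then 377, 217, 267 and 464 squares at increasing distance in µm. Left, genes of T cells, follicles and the marginal zone; right, genes of red pulp, with the score gene Slc40a1 dashed. Marco and Siglec1 are highest at up to 75 µm (7023 and 2098 CPM), and Slc4a1 climbs later than C1qb.

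Over all genes with at least 1000 counts, the 10 with the highest log2 ratios included Rhd, Slc4a1, Mrc1, Cd5l, Hbb-bt, Klf1, Cd163, Hemgn and Epor. The 10 with the lowest were Dsc3, Car3, Retn, Serpina3n, Pck1, Sostdc1, Insm1, Cxcl13, Pdcd1 and Foxp3. Car3, Retn and Pck1 are genes of fat cells, and 97.0%, 94.4% and 93.6% of their white pulp transcripts lay in the 21 fat squares. With fat squares left out and the remaining squares ranked anew, Car3 had a log2 ratio of 0.03, Retn of -0.75 and Pck1 of -0.65, against -5.02, -4.83 and -4.58 with them. The fourth fat gene compared, Aqp7, a channel for water and glycerol, went from -4.43 to -1.93. Of the other genes of that group at most 3.005% of the white pulp transcripts lay in fat squares. Dsc3, a desmosomal cadherin, had 69 transcripts in red pulp and 2228 in white pulp (log2 -5.06, -5.42 to -4.71), of which 0.314% were in fat squares. Serpina3n, a protease inhibitor, was at -4.77 and Sostdc1, a secreted inhibitor of BMP and Wnt signals, at -4.46.

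Of the 10 interferon and innate sensing genes, against 39.5% and 24.6% of all compared genes, 6 were at least 2-fold higher in white pulp, among them Psmb8, a subunit of the immunoproteasome (-1.57), Gbp5 (-1.53) and Epsti1 (-1.36), and 2 in red pulp, Isg20 (1.15) and Rsad2, which encodes the antiviral enzyme viperin (2.90). On counts per cell Epsti1 was at -0.88 and 2 of the 10 were higher in each zone, against 24.9% of all compared genes in white pulp and 31.5% in red pulp on that scale. With inner red pulp squares set against white pulp without fat, Isg20 was at 0.98. Of the 13 genes of monocytes and dendritic cells, 2 were higher in red pulp and 3 in white pulp, shares below the 24.6% and 39.5% of all compared genes. The 2 were Clec4a3 (2.80), a lectin of patrolling monocytes, and F13a1 (1.51, or 2.17 without the fat squares), a clotting factor. F13a1 was at 0.25 in its lowest quadrant. The 3 were Ncf4 (-1.46), Lamp3 (-1.32), a marker of mature dendritic cells, and Cybb (-1.27). Ncf4 and Cybb encode parts of the phagocyte oxidase, and on counts per cell they were at -0.98 and -0.79 and Lamp3 at -0.85, all within 2-fold. On that scale 5 of the 13 were higher in red pulp and none in white pulp, against 31.5% and 24.9% of all compared genes. The 17 chemokines and receptors compared held 6 that were higher in white pulp, a share below the 39.5% of all compared genes, and none in red pulp. They were Ccl11 (-2.78), Ccl7 (-2.36), Cxcl16 (-1.41) and Ccl2 (-1.19) beside Cxcl13 and Cxcr5. Ccl11, Ccl7 and Ccl2 were among the 119 genes with fewer than 1000 counts. Of those 119 genes, 81 were higher in white pulp and 7 in red pulp, with a median log2 ratio of -1.41. On counts per cell Cxcl16 was at -0.93 and Ccl2 at -0.71, and 4 of the 17 were higher in white pulp and 5 in red pulp, near the 24.9% and 31.5% of all compared genes on that scale. Without the fat squares Ccl11 was at -2.003 and Ccl7 at -2.32. None of the 4 cell cycle genes was 2-fold apart, with Stmn1 at -0.56 and Ube2c at -0.05. Of the plasma cell genes, Slamf7 was at -1.08 (-0.60 on counts per cell) and Sdc1 at 0.98 (1.46). Krt19 and Upk3b, from epithelium and mesothelium, were at -1.91 and -1.58, but at 0.66 and 1.17 without fat squares and with the rest ranked anew.

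The direction of the differences was the same over most of the section. This is a description, since the genes were chosen on sums of the whole section and the quadrants are parts of it. Of 232 genes at least 2-fold apart, 231 had the same direction in the lower right quadrant, 227 in the upper left, 226 in the upper right and 222 in the lower left. Over the 4 equal classes of the score, from white pulp to red pulp, 50 of the 89 genes higher in red pulp rose at every step and 126 of the 143 higher in white pulp fell at every step. The genes had been chosen on the end classes, so the order of those was given. Of the 89, 37 were highest in the middle squares, among them Ppbp and Pf4.

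In the PHZ-treated spleen many genes lay the other way under the same rule. There 650 squares of 2600 had the highest and 650 the lowest share of the score genes. Of 356 genes compared, 184 were at least 2-fold higher in the high-score squares (51.7%) and 44 in the low-score squares (12.4%). The 127 genes within 2-fold in the untreated spleen and compared in both leaned to the high-score squares, with a median log2 ratio of 0.96. Of the 7 genes of other organs, 5 were at least 2-fold higher in the high-score squares and 1 in the low-score squares (median 1.93). Genes of the untreated white pulp lay with the score as well: Cxcl13 had a log2 ratio of high over low of 3.71, Siglec1 3.01, Marco 2.85, Cxcr5 2.66 and Cd3e 2.29. Erythroid genes lay against it, with Slc4a1 at -2.49 and Hbb-bt at -1.94. The C1q genes kept their side, C1qb at 1.95. Of the 20 macrophage genes, 17 were at least 2-fold higher in the high-score squares and none in the low-score squares, against 51.7% and 12.4% of all compared genes. Whether the rule picked other tissue there was not tested. The high-score squares held 15201 cells per mm² and the low-score squares 13236. Of the 127 genes higher in white pulp of the untreated spleen and compared in both, 90 were higher in the high-score squares of the PHZ spleen and 2 in the low-score squares, and of the 87 higher in red pulp, 24 and 27. The squares of that section are therefore named by their score and not as red and white pulp. With 1 section each, the difference between the spleens was not tested.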

How the data were processed

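Gene and cell tables of 6 mouse sections were used, the untreated spleen in depth. The authors deposited counts of transcripts per gene and cell, unnormalized, with cell positions and areas; the run description names analysis software version 1.7.1.0, whereas the paper names Space Ranger. A deposited quality score is given for each transcript. The counts were rebuilt exactly from transcripts of score 20 or more. Cells were binned by centroid in squares of 50 µm (minimum 10 cells). Zone sums were divided by all gene counts. Intervals are exact conditional binomial (95%). Python 3.11.15, NumPy 2.4.6, pandas 2.3.3 and SciPy 1.17.1 were used. The calculation of the ratios was checked on simulated zone sums with counting error only, which left out the spread between squares. Doublets were not called. Members and gene lists were chosen with earlier results of these data known. Named were up to 5 genes per list by size of ratio, the 10 highest and lowest with at least 1000 counts, and 14 fixed genes; other genes named were chosen after their values were seen. Some items that the rule names are not reported here. No column (0) belonged to another series. Per-cell minimums, border and distance comparisons, and the removal of fat squares were added after the data were seen. Alternatives changed squares, score, zone size, transcripts, scale and count minimum. Both spleens lay on 1 slide; mouse and condition cannot be told apart.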

Additional observations from a re-analysis of the deposited data

Results flagged for a closer look

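The same squares rule was applied to the spleen after PHZ, and results that pointed opposite ways in the 2 spleens are given here. There is 1 section each, so the difference between the spleens was not tested. Against their direction in the untreated spleen, the log2 ratio of high-score over low-score squares after PHZ was 2.85 for Marco, 3.01 for Siglec1, 3.71 for Cxcl13, 2.66 for Cxcr5, 2.29 for Cd3e, -1.94 for Hbb-bt and -2.49 for Slc4a1. The median log2 ratio of the marginal zone macrophage list (2 genes) was 2.93 and that of the T cell list (13 genes) 2.06. That of the B cell follicle list (3 genes) was 2.66 and that of the erythroid list (20 genes) -2.11. Of all 356 genes compared there, 51.7% were at least 2-fold higher in the high-score squares and 12.4% in the low-score squares. Genes within 2-fold in the untreated spleen had a median of 0.96, and the 7 genes of other organs 1.93. The ratio of cell density was 1.15 and that of median cell area 0.810, against 0.740 and 1.30 in the untreated spleen.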

How the results depend on the processing

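No paired analysis was possible because each condition had 1 section. Of 89 genes higher in red pulp, the count stayed within 1.5 times in 22 of 23 alternatives (52 to 114), the exception being the lower left quadrant with 52. The count of 143 genes of 362 higher in white pulp became 94 of 289 compared with the top and bottom 10%. It was 90 of 362 on counts per cell and 62 of 243 with at least 1000 counts. By quadrant it was 69 of 270 in the upper left, 63 of 234 in the lower left, 65 of 236 in the upper right and 64 of 264 in the lower right. The density ratio of 0.740 became 0.662 in squares of 100 µm, 0.725 with at least 20 cells, 0.722 with the top and bottom 10%, 0.674 with the score per cell, 0.719 without squares of other tissue, 0.772 without border squares, and 0.721, 1.02, 0.664 and 0.696 in the same order of quadrants. The area ratio of 1.30 became 1.39 with the top and bottom 10%, 1.37 with the score per cell, 1.28 without border squares, 1.26, 1.19, 1.34 and 1.36 in the quadrants, and 0.973 for nuclei. Krt19 changed sign with at least 20 cells (0.49), without other tissue (0.36) and in the upper left (0.51) and upper right (0.0175) quadrants, and Upk3b with at least 20 cells (0.96), the score per cell (0.27), without other tissue (0.78) and in the same quadrants (1.17 and 0.46). In the lower left quadrant Cnn1 was -0.18, Myl9 -0.14 and Otor 0.25, and in the upper right Marco was 0.39. The removal of fat squares was chosen after seeing the data: it gave a density ratio of 0.710, Car3 0.0341, Krt19 0.66 and Upk3b 1.17. The causes were not tested. Of 77 named genes past 2-fold (score genes left out), 70 kept their direction in every alternative run and 47 stayed past 2-fold. The alternatives reused the section in which these genes had passed 2-fold. Genes with few counts, and cells holding transcripts of their neighbors, limit what can be read.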
